A study of Mus musculus with 17 samples.

Results

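The 43 genes described here encode proteins that copy DNA or divide the chromosomes: 23 act in S phase and 20 in mitosis. They were picked by name from the deposited count tables of mouse RNA sequencing, 43 of 54532 listed genes, and all 43 passed the low-count filter in both tables, among 14006 genes tested in tumor CD45 cells and 13357 in MutuDC. The S-phase genes were the helicase subunits Mcm2 to Mcm7 with Mcm10, Cdc45 and Gins2, the licensing factors Cdc6 and Cdt1, the synthesis factors Pcna, Pola1, Prim1, Fen1 and Lig1, the nucleotide enzymes Rrm1, Rrm2 and Tyms, and the regulators Ccne1, Ccne2, E2f1 and Uhrf1. The mitotic genes were Mki67 and Top2a, the cyclins and kinases Ccna2, Ccnb1, Ccnb2, Cdk1, Plk1, Aurka and Aurkb, the checkpoint and anaphase-promoting genes Bub1, Bub1b, Cdc20 and Ube2c, and the spindle and kinetochore genes Kif11, Kif23, Tpx2, Cenpe, Cenpf, Birc5 and Nusap1.

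The study asked what versikine, a proteolytic fragment of the matrix proteoglycan versican, does to immune cells of the tumor microenvironment. In 1 set, CD45+ cells (leukocytes) labelled Vkine tumor CD45 were set against EV tumor CD45 (3 samples each). In the other, the dendritic cell line MutuDC was labelled Vkine + LPS, EV + LPS, Vkine (3 samples each) or EV (2 samples); LPS is bacterial lipopolysaccharide, an activator of dendritic cells. EV is the control label and is not spelled out. The labels used here do not say how versikine was given, the LPS dose and time, or the strain and age of the mice. The tumor CD45 samples carry bone marrow CD45 as their source. Their titles hold L1, L2 and L3 in Vkine and R1, R2 and R1L1 in EV, and neither the tissue nor the meaning of these letters is clear. MutuDC is 1 immortalised line, made from mice in which the Itgax promoter drives the SV40 large T antigen, a viral protein that binds the retinoblastoma family, so all 4 of its groups carry that oncogene. Whether replicates came from different mice or separate cultures is not stated. The p-values therefore rest on a spread that may be technical.

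Before S phase, the Mcm2 to Mcm7 ring is loaded onto replication origins by Cdc6 and Cdt1, and Cdc45 and the GINS complex then turn it into the active helicase ahead of the polymerases. Many S-phase genes are switched on by E2F factors once cyclin-dependent kinases have inactivated the retinoblastoma family; many mitotic genes are switched on later by the MuvB complex with B-Myb and FoxM1, through CHR and CCAAT elements of their promoters. Proliferation marks dendritic cell precursors and, in tumors, some macrophages and lymphocytes, whereas neutrophils leave the cell cycle as they mature.

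Promoters of 5 members are shown because the S-phase and mitotic genes differed in these elements. Values per sample are given below for all 5: Mcm5 and Mcm6 of the helicase, Ccnb2 and Plk1 of mitosis, and Cdk1, which held both kinds of element. Each is the RefSeq window of 300 bases, 250 before to 50 after the transcription start, build GRCm38.p6, read 5′ to 3′ on the gene's strand. The windows are Mcm5 at chr8:75109259-75109558 (+), Mcm6 at chr1:128359656-128359955 (−), Ccnb2 at chr9:70421505-70421804 (−), Plk1 at chr7:122159185-122159484 (+) and Cdk1 at chr10:69352863-69353162 (−). Capitals mark the E2F words TTCCCGC and TTGGCGC, the CHR words TTTGAA and TTCGAA, and CCAAT, each searched on both strands; no printed motif overlapped another.
Mcm5: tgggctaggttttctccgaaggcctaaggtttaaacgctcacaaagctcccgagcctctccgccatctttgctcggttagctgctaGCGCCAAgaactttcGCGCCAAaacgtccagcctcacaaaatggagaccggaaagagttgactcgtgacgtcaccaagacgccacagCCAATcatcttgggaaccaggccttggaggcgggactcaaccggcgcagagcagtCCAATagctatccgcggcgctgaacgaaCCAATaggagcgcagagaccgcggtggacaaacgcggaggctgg
Mcm6: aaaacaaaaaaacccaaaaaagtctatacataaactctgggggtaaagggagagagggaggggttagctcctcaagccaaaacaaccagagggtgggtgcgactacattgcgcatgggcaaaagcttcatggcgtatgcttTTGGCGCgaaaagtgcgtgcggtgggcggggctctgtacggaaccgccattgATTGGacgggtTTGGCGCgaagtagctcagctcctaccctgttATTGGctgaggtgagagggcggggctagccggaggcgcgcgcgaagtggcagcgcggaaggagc
Ccnb2: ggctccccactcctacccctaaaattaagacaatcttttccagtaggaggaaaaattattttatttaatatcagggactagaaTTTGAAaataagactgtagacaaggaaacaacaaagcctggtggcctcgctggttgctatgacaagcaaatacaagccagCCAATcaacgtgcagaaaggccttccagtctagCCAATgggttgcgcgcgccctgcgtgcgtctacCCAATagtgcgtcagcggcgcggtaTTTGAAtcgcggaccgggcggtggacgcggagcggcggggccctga
Plk1: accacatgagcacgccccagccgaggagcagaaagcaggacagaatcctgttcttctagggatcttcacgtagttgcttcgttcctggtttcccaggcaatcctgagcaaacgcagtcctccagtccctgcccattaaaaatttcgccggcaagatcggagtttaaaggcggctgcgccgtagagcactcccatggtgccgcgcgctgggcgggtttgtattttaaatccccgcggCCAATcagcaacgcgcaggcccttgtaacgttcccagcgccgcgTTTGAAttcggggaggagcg
Cdk1: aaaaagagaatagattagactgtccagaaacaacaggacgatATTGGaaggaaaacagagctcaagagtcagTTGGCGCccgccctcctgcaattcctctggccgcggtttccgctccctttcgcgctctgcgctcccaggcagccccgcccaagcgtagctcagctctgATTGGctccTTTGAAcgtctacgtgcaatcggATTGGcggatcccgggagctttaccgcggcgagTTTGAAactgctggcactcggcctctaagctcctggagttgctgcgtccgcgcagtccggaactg

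The printed Mcm5 window held 2 E2F words and 3 CCAAT boxes, and the Mcm6 window 2 E2F words and 2 CCAAT boxes, with no CHR word in either. Ccnb2 held 2 CHR words and 3 CCAAT boxes, Plk1 held 1 of each, and Cdk1 held 1 E2F word, 2 CHR words and 3 CCAAT boxes. Over all 37 members with a promoter in the table (42 windows), an E2F word stood in 48% of the 25 S-phase windows and 17.6% of the 17 mitotic windows, beside 6.81% of all 32851 promoters of the same length. CHR words stood in 16% of the S-phase windows and 76.5% of the mitotic windows, beside 19.2% of all promoters, and CCAAT in 60% and 88.2%, beside 37.4%. Tpx2, Ccne2, Mcm4, Gins2, Aurkb and Ccna2 had no entry. A match is a run of letters and was not tested as a binding site.

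Library totals were 13814620 to 18125269 counts in tumor CD45 cells and 15938185 to 21263321 counts in MutuDC. No pair of libraries held identical columns. Mitochondrial genes took 2.47% to 5.56% of counts in 5 of the tumor CD45 libraries and 10.6% in Vkine replicate 1, which also had an erythroid marker sum of 314 CPM (counts scaled to the TMM-adjusted library total), against 8.75 to 28.6 CPM in the other 5. The leukocyte gene Ptprc, which encodes CD45, was at 685 to 930.2 CPM in Vkine and 585 to 777 CPM in EV tumor CD45 libraries. MutuDC expressed all 11 dendritic cell markers checked, among them Xcr1 at 278 to 441 CPM and Clec9a at 284 to 427 CPM. Of 10 T cell markers, 5 to 7 were at 0 in each MutuDC library, Cd3e and Trac in all 11, and the list summed to 127 to 139 CPM in Vkine + LPS, 85.2 to 91.6 CPM in EV + LPS, 57.7 to 62.3 CPM in Vkine, and 67 to 72.7 CPM in EV. Only 2 of the 10 passed the filter in MutuDC, and Cd8a is also in the list of dendritic cell markers, so that sum does not measure T cells. Counts were scaled with edgeR's TMM factors, and a gene was called changed when its adjusted p, from edgeR's quasi-likelihood test with Benjamini-Hochberg adjustment over all genes tested, was below 0.05.

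The line listed higher values of these genes than the tumor leukocytes. Among the deposited FPKM values, Top2a, the topoisomerase that untangles chromosomes, had the highest listed value in EV MutuDC (631 ± 1.95 FPKM, SD, n = 2), ahead of Rrm2 (562 ± 4.99), Pcna (395 ± 2.8) and Mcm7 (373 ± 10.7). Fen1 was lowest at 8.66 ± 0.566 FPKM, and E2f1 next at 14.6 ± 0.244. In EV tumor CD45 cells Pcna led at 84.2 ± 9.04 FPKM (SD, n = 3), followed by Mcm3 at 19.0 ± 3.01, Mcm6 at 16.1 ± 1.52 and Ube2c at 15.6 ± 3.23, with Fen1 again lowest at 0.426 ± 0.217. The length behind the MutuDC FPKM values is not defined and may differ from that of the CD45 values. The order of genes in MutuDC is therefore that of the listed values only. The tables were scaled separately, so levels across them are not compared by a test. Fen1 and Gins2 values are uncertain: 78.8% of Fen1's exon bases lie opposite the antisense gene Gm10143 and 67.3% of Gins2's opposite Gse1 in the GENCODE annotation, and whether counting used the strand is not stated. Ccnb1, Ccnb2, Pcna and Tyms have named pseudogene copies that could share reads with them.

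In tumor CD45 cells, replication and mitosis genes lay mostly lower with versikine, and no member passed the test. The log2 fold change of Vkine over EV was below 0 for 39 of 43 members, 19 of 23 in S phase and 20 of 20 in mitosis, beside 50.3% of all genes tested. The median was -0.384 for S-phase and -0.353 for mitotic members, against -0.00203 for all genes. edgeR called 0 members, and 4 genes in all, a background of 0.0286%. At an unadjusted p below 0.05, 10 of 43 members stood out, beside 12% of all genes tested; DESeq2 called 0 members and 238 of 14006 genes in all. Members were measured in the same 6 libraries, so these counts are not independent observations. In these bulk samples, fewer dividing cells and less of each RNA per dividing cell cannot be told apart.

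Mcm6 (ENSMUSG00000026355, chr1:128331590-128359664), a subunit of the replicative helicase, stood at 38.4, 55.9 and 48.4 CPM in Vkine, against 82.1, 67.8 and 78.5 CPM in EV tumor CD45 cells. The groups did not overlap, and the log2 fold change was -0.68 ± 0.17 (SE), with an edgeR adjusted p of 0.26. Its DESeq2 adjusted p was 0.0507, and with no low-count filter the edgeR value was 0.0129, the 1 setting in which a member was called; edgeR called 511 of 25036 genes there, against 4 of 14006 with the filter. Over all settings tried but the replicate block, the adjusted p of Mcm6 ran from 0.0129 to 0.831 (without Vkine replicate 3). That block paired R1 with L1 and R2 with L2 by title alone and left R1L1 and L3 unpaired. It called 0 of 14006 genes and left too little to estimate the spread, so it cannot show whether Mcm6 changed. Mcm3, another subunit of the helicase ring (ENSMUSG00000041859, chr1:20802968-20820312), had 49.2, 53 and 43.9 CPM in Vkine, against 80, 58.8 and 78.1 CPM in EV, again without overlap (-0.57 ± 0.16, edgeR adjusted p = 0.276).

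The ribonucleotide reductase subunits, which make the DNA building blocks, were also apart. Rrm2 had 16.2, 21.6 and 12 CPM in Vkine, against 30.5, 24 and 23.2 CPM in EV (-0.64 ± 0.24). Rrm1 had 39.7, 53.4 and 36.8 CPM in Vkine, against 53.6, 55.6 and 68.4 CPM in EV (-0.45 ± 0.18). Neither passed the edgeR test, with adjusted p of 0.348 for Rrm2 and 0.364 for Rrm1. In all, 7 S-phase members lay wholly below EV (Mcm6, Mcm3, Rrm2, Rrm1, Mcm7, Mcm4 and Cdc6) and 1 mitotic member (Cdk1), beside 9.42% of all genes tested. No member lay wholly above EV, beside 9.21% of all genes. Whether the S-phase share differed from the mitotic share was not tested.

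Cdk1, the kinase that drives entry into mitosis (ENSMUSG00000019942, chr10:69335146-69352938), had 23.4, 21.2 and 13.9 CPM in Vkine, against 27.7, 25.8 and 32.6 CPM in EV (-0.56 ± 0.22, edgeR adjusted p = 0.36). Top2a had 57.7, 65.8 and 38.7 CPM in Vkine, against 83.9, 61.6 and 89.9 CPM in EV (-0.54 ± 0.22, edgeR adjusted p = 0.367). The proliferation antigen Mki67 had 109, 112 and 66.2 CPM in Vkine, against 134, 94.8 and 147 CPM in EV (-0.39 ± 0.23, edgeR adjusted p = 0.523). For Top2a and Mki67 the groups overlapped, because EV replicate 2 was the lowest EV sample and Vkine replicate 2 the highest Vkine sample.

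Ccna2, the cyclin of S phase and G2, had 18, 23.7 and 15 CPM in Vkine, against 25.9, 22.5 and 29.2 CPM in EV (-0.45 ± 0.21). Birc5, which encodes survivin of the chromosomal passenger complex, had 28.6, 19.5 and 16.5 CPM in Vkine, against 27.3, 27.6 and 33.9 CPM in EV (-0.46 ± 0.22). Both pairs of groups overlapped, and the edgeR adjusted p was 0.426 for Ccna2 and 0.45 for Birc5.

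Of the 4 G1/S regulators, Uhrf1, which couples DNA methylation to replication, had a log2 fold change of -0.55 ± 0.24 (edgeR adjusted p = 0.411), and the other three lay closer to 0. Ccne1, which encodes cyclin E, had 4.66, 4.64 and 4.32 CPM in Vkine, against 5.8, 3.56 and 4.56 CPM in EV (-0.03 ± 0.34). Its paralog Ccne2 had 7.62, 4.7 and 3.95 CPM in Vkine, against 6.14, 3.9 and 8.02 CPM in EV (-0.15 ± 0.38). The transcription factor E2f1 had 33.9, 33.9 and 25.2 CPM in Vkine, against 31.9, 35.7 and 35.8 CPM in EV (-0.15 ± 0.17). In Ccne1, Ccne2 and E2f1 the groups overlapped. The 4 members with a positive log2 fold change were the licensing factor Cdt1 (0.23 ± 0.18), thymidylate synthase Tyms (0.18 ± 0.26), Gins2 (0.08 ± 0.28) and Mcm10 (0.06 ± 0.31), with edgeR adjusted p of 0.645 to 0.959.

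**Figure D1:**
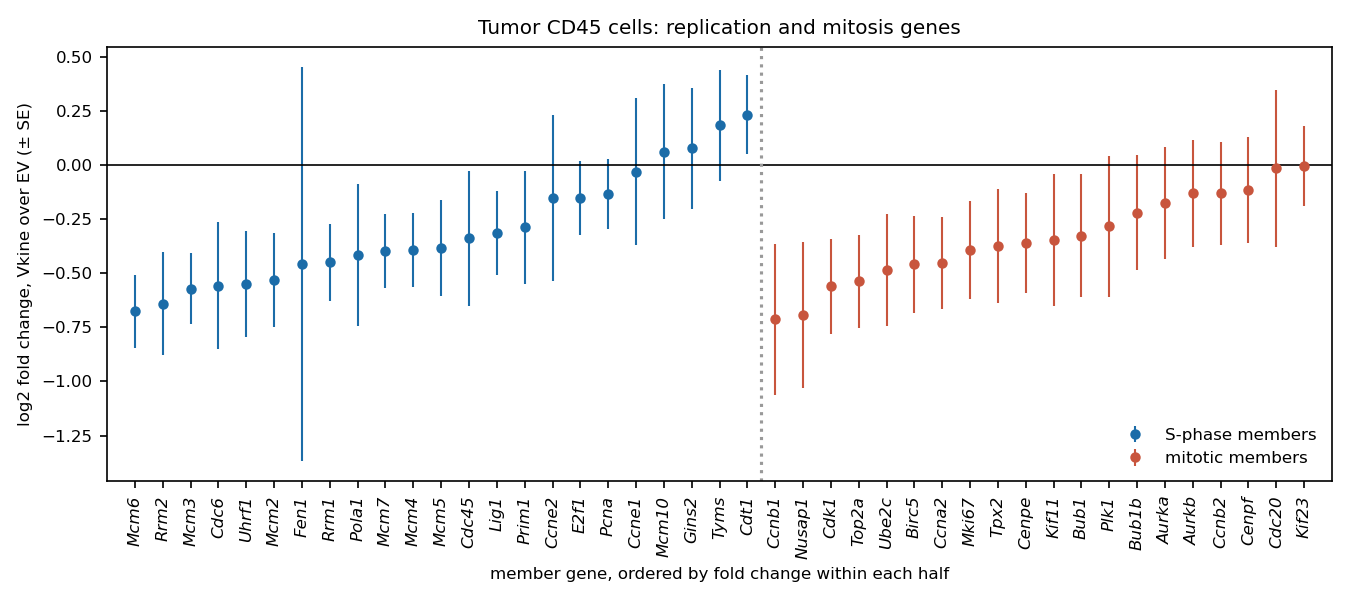
Log2 fold change of Vkine over EV in tumor CD45 cells for each of the 43 members (points; bars are 1 SE, n = 3 each), S-phase members on the left and mitotic members on the right, ordered by value. All but 4 points lie below 0 (Mcm10, Gins2, Tyms and Cdt1 lie above), and no member passed the edgeR test.

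S-phase and mitotic members moved alike across these 6 libraries. The mean log2 CPM of the S-phase members was 3.97, 4.25 and 3.82 in Vkine, against 4.34, 4.13 and 4.5 in EV. That of the mitotic members was 4.14, 4.39 and 3.78 in Vkine, against 4.45, 4.24 and 4.71 in EV. Vkine replicate 2 lay above EV replicate 2 on both means, so the groups overlapped. The S-phase mean minus the mitotic mean was -0.171, -0.133 and 0.0379 in Vkine, against -0.115, -0.109 and -0.214 in EV, with no separation of the groups. The difference of the medians (S-phase minus mitotic) was -0.0305 on the log2 scale and lay between -0.0873 and 0.0688 as each library was left out.

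Marker levels of other cell types differed in the same contrast, with 0 markers called by edgeR. Neutrophil markers summed to 3626 to 5654 CPM in Vkine, against 453 to 2141 CPM in EV, and all 10 tested had a positive log2 fold change. The same list summed to 2010.1 to 3608 CPM in the MutuDC line, where only 2 of its 11 genes passed the filter. Its sum is therefore not particular to neutrophils. T cell markers summed to 83 to 106 CPM in Vkine, against 37.9 to 60.7 CPM in EV (10 of 10 positive), and dendritic cell markers to 1147 to 1508 CPM, against 561 to 1030 CPM (11 of 11 positive). Cd8a is counted in both of these lists. Macrophage markers summed to 9239 to 12773 CPM in Vkine, against 11742 to 14651 CPM in EV, with 9 of 11 negative. Stromal markers, of cells outside the CD45+ gate, were also present: fibroblast markers summed to 156 to 258 CPM in Vkine, against 99 to 195 CPM in EV (7 of 7 positive), and endothelial markers to 84.3 to 171 CPM, against 40.9 to 140.5 CPM (5 of 5 positive). NK cell markers (6 of 6) and erythroid markers (4 of 4) were positive, B cell markers were negative in 4 of 5, and monocyte and epithelial markers split evenly. The part of cell type composition in the members' values was not tested.

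Other cell cycle genes, from lists of known replication, mitosis and regulator genes, were counted in the same way. Of 46 other replication genes 38 were below 0 (median -0.29), and of 40 other mitosis genes 35 (median -0.306), with 0 called in either list by edgeR and 10 and 7 at an unadjusted p below 0.05, beside 12% of all genes. DESeq2 called 2 of the replication genes, both lower, and 0 of the mitosis genes, with 238 of 14006 genes called in all. The regulators went both ways: 3 of 7 CDK inhibitors and 3 of 8 G1 cyclins and kinases had a positive value. The origin recognition subunit Orc5 (-0.80, edgeR adjusted p = 0.26) and the kinetochore gene Spc25 (-0.82, edgeR adjusted p = 0.305) were among the lowest, and securin (Pttg1) was positive at 0.61 (edgeR adjusted p = 0.287). Cdkn1a, which encodes the CDK inhibitor p21, had 706, 1197 and 1261 CPM in Vkine, against 773, 599 and 764 CPM in EV (0.57 ± 0.23, edgeR adjusted p = 0.373). Cyclin D1 (Ccnd1) had 33.6, 53.7 and 35 CPM in Vkine, against 58.8, 64.6 and 55.4 CPM in EV, without overlap (-0.55 ± 0.19, edgeR adjusted p = 0.335). Cdkn1b (0.17), Ccnd2 (0.48), Ccnd3 (0.17) and Foxm1 (-0.28) were not called either.

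In MutuDC the same genes changed in both directions. Vkine against EV called 18 of 43 members, 7 higher and 11 lower, beside 35.2% of all genes tested (16.9% higher and 18.3% lower). EV + LPS against EV called 15, with 10 higher and 5 lower, beside 34.8% (17.2% and 17.6%). Vkine + LPS against Vkine called 24, with 11 higher and 13 lower, beside 51.9% (27.6% and 24.3%). Vkine + LPS against EV + LPS called 24, with 8 higher and 16 lower, beside 42% (22.8% and 19.2%). The interaction, that is the effect of Vkine with LPS minus its effect without LPS, was called for 25 members, 11 higher and 14 lower, beside 49.2% (25.5% and 23.7%). The members' share was close to the background for the effect of LPS alone and above it for Vkine + LPS against EV + LPS, a difference that was not tested, and the members' median log2 fold change ran from -0.14 to 0.03 over the 5. The balance of higher and lower calls depended on the scaling: with upper-quartile factors the counts were 7 higher and 8 lower, 10 and 4, 8 and 20, 4 and 21, and 8 and 20 in that order, and with limma on log2(FPKM + 1) they were 8 and 5, 10 and 3, 5 and 24, 3 and 22, and 5 and 22. When each of the 11 libraries was left out in turn, 5 of 18, 7 of 15, 20 of 24, 18 of 24 and 18 of 25 calls held in every fit. Without EV replicate 1 or 2, the calls of Vkine against EV fell to 3 higher and 4 lower or 4 and 3, those of EV + LPS against EV had 2 lower, and the interaction had 6 higher. The first pair of comparisons shares the EV samples and the next pair shares the Vkine + LPS samples, so their values are given side by side and not as independent observations.

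The calls were then counted for S-phase and mitotic members apart. With Vkine alone, against EV, 2 S-phase members rose and 7 fell, while 5 mitotic members rose and 4 fell. With LPS alone, in EV + LPS against EV, 2 S-phase members rose and 4 fell, while 8 mitotic members rose and 1 fell. In Vkine + LPS against EV + LPS, 4 S-phase members rose and 7 fell, and 4 mitotic members rose and 9 fell. Against Vkine, Vkine + LPS had 6 S-phase members higher and 5 lower, and 5 mitotic members higher and 8 lower. In the interaction, 8 S-phase values were called higher and 5 lower, and 3 mitotic values higher and 9 lower. With upper-quartile factors the S-phase counts were 2 higher and 5 lower, 2 and 4, 2 and 11, 4 and 11, and 5 and 9 in the same order, so the balance turned in the last pair. The mitotic counts were then 5 and 3, 8 and 0, 2 and 10, 4 and 9, and 3 and 11. Whether the split differed between S-phase and mitotic members was not tested. The S-phase median minus the mitotic median was -0.141, -0.151, 0.0331, -0.0661 and 0.154 log2 units in that order.

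On the mean log2 CPM scale, the S-phase members stood at 7.19, 7.21 and 7.2 in Vkine + LPS, 7.28, 7.23 and 7.31 in EV + LPS, 7.23, 7.22 and 7.2 in Vkine, and 7.34 and 7.34 in EV. The mitotic members stood at 7.48, 7.46 and 7.49 in Vkine + LPS, 7.67, 7.66 and 7.66 in EV + LPS, 7.55, 7.57 and 7.58 in Vkine, and 7.52 and 7.51 in EV. EV therefore had the highest S-phase mean, and EV + LPS the highest mitotic mean. The S-phase minus the mitotic mean was -0.293, -0.256 and -0.285 in Vkine + LPS, -0.382, -0.429 and -0.344 in EV + LPS, -0.317, -0.349 and -0.378 in Vkine, and -0.185 and -0.175 in EV. Both EV samples lay above every other sample, Vkine + LPS came next, and Vkine and EV + LPS overlapped at the low end.

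**Figure D2:**
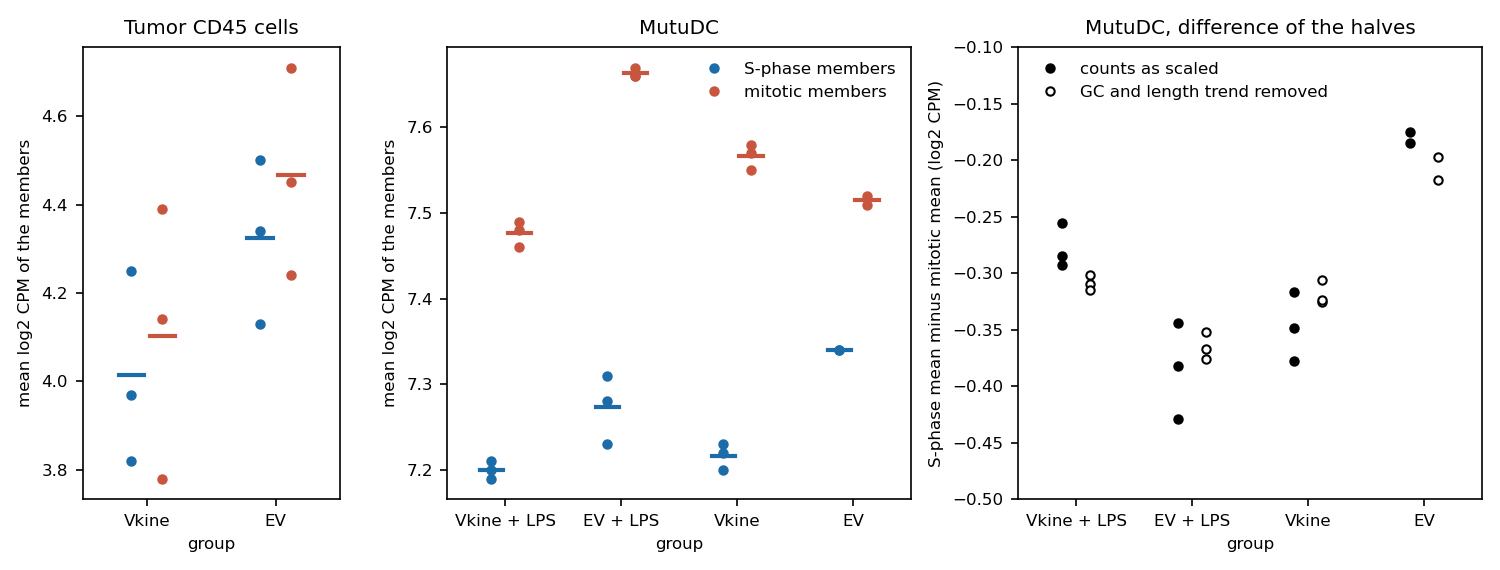
Mean log2 CPM of the S-phase and mitotic members in each tumor CD45 sample (left) and MutuDC sample (middle), with bars at group means, and the S-phase minus the mitotic mean in each MutuDC sample (right), filled for counts as scaled and open after a GC and length trend was removed. EV samples lie highest in the right panel at -0.185 and -0.175, and EV + LPS samples lie lowest on average.

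Among the 9 helicase genes, Mcm5 had the largest interaction value. Mcm5 (ENSMUSG00000005410, chr8:75109569-75128439) stood at 589.9, 612 and 585 CPM in Vkine + LPS, 457, 414 and 469.6 CPM in EV + LPS, 480.4, 469 and 414 CPM in Vkine, and 685 and 673 CPM in EV. It was thus lower with either agent alone and close to EV, though still below it, with both. The log2 fold change was -0.58 ± 0.08 for Vkine and -0.60 ± 0.08 for EV + LPS, each against EV, and 0.39 ± 0.07 and 0.42 ± 0.07 for Vkine + LPS against Vkine and against EV + LPS (edgeR adjusted p of 2.63e-05, 1.86e-05, 0.000189 and 0.00018). Its interaction was 0.99 ± 0.10 (edgeR adjusted p = 1.21e-06), and each of these Mcm5 calls held in every fit that left out 1 of the 11 libraries.

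Of the other ring subunits, only Mcm2 was called in any comparison. Mcm6 stood at 429, 426 and 435 CPM in Vkine + LPS, 458, 461 and 505 CPM in EV + LPS, 463, 479.9 and 479 CPM in Vkine, and 468 and 461 CPM in EV, with no call in any comparison (edgeR adjusted p of 0.0505 against Vkine and 0.0572 against EV + LPS for Vkine + LPS). Mcm3, Mcm4 and Mcm7 were not called either, with log2 fold changes between -0.16 and 0.04. Mcm2 stood at 273, 294 and 284 CPM in Vkine + LPS, 258, 252 and 270.1 CPM in EV + LPS, 266, 259 and 269 CPM in Vkine, and 302 and 303 CPM in EV. It fell with Vkine (-0.19 ± 0.06) and with LPS (-0.22 ± 0.06) against EV. Those Mcm2 calls were lost without either EV replicate (adjusted p up to 0.185 and 0.107), and the Vkine one also without Vkine replicate 1 or 2.

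Mcm10, Cdc45 and Gins2 act as the ring becomes the active helicase. Mcm10 had 78.4, 79.1 and 81.2 CPM in Vkine + LPS, 86.2, 93.5 and 94.5 CPM in EV + LPS, 75.6, 74.7 and 71.8 CPM in Vkine, and 89.3 and 91.5 CPM in EV. It fell with Vkine in both settings, with log2 fold changes of -0.29 ± 0.07 without LPS and -0.20 ± 0.06 with LPS (edgeR adjusted p of 0.00406 and 0.0166). These calls were lost without EV replicate 2 (0.0662) and without Vkine + LPS replicate 1 or 2 (up to 0.0551). Cdc45 had 75.2, 78.6 and 78.1 CPM in Vkine + LPS, against 95.8, 91.3 and 105 CPM in EV + LPS, without overlap (-0.33 ± 0.07, edgeR adjusted p = 0.00108). Gins2, whose counts are uncertain, had 54.3, 63.1 and 57.7 CPM in Vkine + LPS, 48.1, 40.7 and 55.7 CPM in EV + LPS, 45.8, 45.4 and 38.7 CPM in Vkine, and 58.6 and 54.1 CPM in EV. It rose in Vkine + LPS against Vkine (0.43 ± 0.10) and its interaction was 0.66 ± 0.16.

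Of the licensing factors, Cdc6 (ENSMUSG00000017499, chr11:98907801-98923940) fell with the combination. It had 62.2, 62.3 and 62.1 CPM in Vkine + LPS, 81.8, 79.5 and 74.3 CPM in EV + LPS, 78, 81.3 and 75.9 CPM in Vkine, and 82.1 and 78.3 CPM in EV. The Vkine + LPS samples lay below all others, and the log2 fold change was -0.34 ± 0.06 against EV + LPS and -0.33 ± 0.06 against Vkine (edgeR adjusted p of 0.00056 and 0.000384). Cdt1 was called in no comparison (group means of 164, 185, 173 and 195 CPM in Vkine + LPS, EV + LPS, Vkine and EV).

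Prim1 of DNA synthesis is the catalytic subunit of primase, which lays down the RNA primers. Prim1 (ENSMUSG00000025395, chr10:128015168-128030037) stood at 87.5, 80.9 and 78.9 CPM in Vkine + LPS, 118, 121 and 130.2 CPM in EV + LPS, 102, 104 and 109 CPM in Vkine, and 87.2 and 89.2 CPM in EV. It rose with LPS against EV (0.48 ± 0.07, edgeR adjusted p = 0.000123) and fell in Vkine + LPS against EV + LPS (-0.58 ± 0.07, edgeR adjusted p = 5.75e-06), with no overlap in either comparison. Its rise with Vkine alone (0.25 ± 0.07) was lost without either EV replicate (adjusted p up to 0.106). The interaction was -0.83 ± 0.10 (edgeR adjusted p = 5.39e-06).

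Lig1, the ligase that joins Okazaki fragments, had 157, 163 and 151 CPM in Vkine + LPS, 171, 166 and 179.8 CPM in EV + LPS, 189, 201 and 184 CPM in Vkine, and 169.8 and 165 CPM in EV. It fell in Vkine + LPS against Vkine (-0.29 ± 0.06, edgeR adjusted p = 0.00102). The flap endonuclease Fen1, whose counts are uncertain, had 21.1, 21.9 and 21.9 CPM in Vkine + LPS, 17.9, 14.2 and 13 CPM in EV + LPS, 14.6, 12.7 and 14.5 CPM in Vkine, and 18.9 and 20.6 CPM in EV. Fen1 rose in Vkine + LPS against Vkine (0.64 ± 0.11) and against EV + LPS (0.52 ± 0.11), and its interaction was 1.02 ± 0.17 (edgeR adjusted p = 9.69e-05). Pcna, the sliding clamp, and Pola1, a catalytic subunit of polymerase alpha, were called in no comparison; their log2 fold changes lay between -0.22 and 0.13.

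Of the nucleotide enzymes, Rrm2 (ENSMUSG00000020649, chr12:24708241-24714146) fell most. Rrm2 had 454, 433 and 460.4 CPM in Vkine + LPS, 612, 594 and 636 CPM in EV + LPS, 691, 674 and 652 CPM in Vkine, and 655 and 643 CPM in EV. All Vkine + LPS samples lay below all others. The log2 fold change was -0.58 ± 0.06 against Vkine and -0.45 ± 0.06 against EV + LPS (edgeR adjusted p of 5.6e-07 and 1.68e-05), whereas Vkine alone gave 0.05 ± 0.06 and LPS alone -0.08 ± 0.06 against EV, neither called. The partner subunit Rrm1 had 515, 487 and 497 CPM in Vkine + LPS, against 579, 586 and 555 CPM in EV + LPS (-0.20 ± 0.06, edgeR adjusted p = 0.00965). Tyms had 150.1, 154 and 154 CPM in Vkine + LPS, 143, 142 and 159 CPM in EV + LPS, 132, 135 and 135 CPM in Vkine, and 152 and 156 CPM in EV. It was called lower in Vkine and higher in Vkine + LPS against Vkine. The first Tyms call was lost without any 1 of the EV or Vkine replicates (adjusted p up to 0.218), and the other without EV replicate 1 or 2, Vkine replicate 1 or Vkine + LPS replicate 3 (up to 0.0646).

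Cyclin E is the partner of Cdk2 at the start of S phase, and its paralogs differed in the counts as scaled. Ccne2 (ENSMUSG00000028212, chr4:11191351-11204779) had 41.6, 38.3 and 43.1 CPM in Vkine + LPS, 67.9, 64.4 and 65.2 CPM in EV + LPS, 40, 44.9 and 45.8 CPM in Vkine, and 45.6 and 48.4 CPM in EV. EV + LPS stood above all other samples: 0.49 ± 0.08 against EV (edgeR adjusted p = 0.000357), and the log2 fold change of Vkine + LPS against it was -0.68 ± 0.08 (edgeR adjusted p = 4.31e-06). Ccne1 had 37.5, 41.4 and 41 CPM in Vkine + LPS, 33.5, 30.2 and 38 CPM in EV + LPS, 36.1, 31.7 and 31.9 CPM in Vkine, and 35 and 37.1 CPM in EV. It was called higher in Vkine + LPS against EV + LPS, where the groups overlapped (0.24 ± 0.09, edgeR adjusted p = 0.0476), and against Vkine, where they did not (0.27 ± 0.09). In all, 8 and 6 of the 11 fits that left out 1 library lost these calls, in both cases those without either EV replicate, Vkine replicate 2 or 3, or Vkine + LPS replicate 2 or 3, and in the first also those without EV + LPS replicate 1 or 2 (adjusted p up to 0.14). Of 10 other settings, 8 lost the Ccne1 call against EV + LPS, RLE factors and DESeq2 among them, and 3 the call against Vkine. With the GC and length offset described below, Ccne2 was not called with LPS alone (0.11 ± 0.08, edgeR adjusted p = 0.318). The interactions of Ccne2 (0.25 ± 0.10, not called) and Ccne1 (0.28 ± 0.11, called) then had the same sign. Against EV + LPS, Vkine + LPS stayed lower in Ccne2 (-0.275 ± 0.07) and higher in Ccne1 (0.19 ± 0.07).

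E2f1 had 31.1, 33.7 and 31.9 CPM in Vkine + LPS, 30.7, 30.6 and 28.8 CPM in EV + LPS, 37, 34.8 and 33.9 CPM in Vkine, and 40.4 and 41.1 CPM in EV. It fell with LPS against EV (-0.44 ± 0.08, edgeR adjusted p = 0.000614). Uhrf1 had 323, 351 and 334 CPM in Vkine + LPS, 309, 353 and 329.9 CPM in EV + LPS, 282, 283 and 301 CPM in Vkine, and 363 and 371 CPM in EV. It fell with Vkine (-0.35 ± 0.07, edgeR adjusted p = 0.00132), and the Vkine samples lay below all others.

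The mitotic genes of chromosome structure fell with the combination. Mki67 had 586, 556 and 582 CPM in Vkine + LPS, 661, 836 and 672 CPM in EV + LPS, 807, 829 and 905 CPM in Vkine, and 696 and 727 CPM in EV. Vkine + LPS was below every other sample, with log2 fold changes of -0.56 ± 0.08 against Vkine (edgeR adjusted p = 3.28e-05) and -0.33 ± 0.08 against EV + LPS (edgeR adjusted p = 0.00406). The rise of Mki67 with Vkine alone (0.25 ± 0.09, edgeR adjusted p = 0.0413) was lost in 7 of 11 fits, those without EV replicate 1 or 2, Vkine replicate 2 or 3, or any Vkine + LPS replicate (adjusted p up to 0.217). Top2a had 936, 890.5 and 919 CPM in Vkine + LPS, 1263, 1413 and 1212 CPM in EV + LPS, 1064, 1124 and 1201 CPM in Vkine, and 1089 and 1087 CPM in EV. It fell in Vkine + LPS against EV + LPS (-0.50 ± 0.07, edgeR adjusted p = 3e-05).

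Among the cyclins and kinases of mitosis, the B-type cyclins were called in opposite directions in Vkine + LPS against Vkine. Ccnb2 (ENSMUSG00000032218, chr9:70407692-70421547), a B-type cyclin, had 68, 74.8 and 71.9 CPM in Vkine + LPS, 83.4, 68.1 and 79.6 CPM in EV + LPS, 100.1, 98.4 and 98.7 CPM in Vkine, and 74.9 and 72.2 CPM in EV. It rose with Vkine (0.43 ± 0.08, edgeR adjusted p = 0.000942), the Vkine samples standing above all others, and fell in Vkine + LPS against Vkine (-0.47 ± 0.07, edgeR adjusted p = 7.65e-05). The other B-type cyclin, Ccnb1, had 309, 307 and 314 CPM in Vkine + LPS, 327, 330.2 and 316 CPM in EV + LPS, 274, 267 and 265 CPM in Vkine, and 274 and 272 CPM in EV. Ccnb1 rose with LPS against EV (0.25 ± 0.06, edgeR adjusted p = 0.00446) and in Vkine + LPS against Vkine (0.21 ± 0.05), so it was high in both LPS groups. Without either EV replicate the first of these Ccnb1 calls was lost (up to 0.0541), as it was with the compared groups alone. The second Ccnb1 call was lost with limma on FPKM. Their kinase Cdk1 had 176, 177 and 181 CPM in Vkine + LPS, 183, 163 and 197 CPM in EV + LPS, 153, 156 and 149 CPM in Vkine, and 175 and 166 CPM in EV. Its 1 call, higher in Vkine + LPS against Vkine (0.22 ± 0.07, edgeR adjusted p = 0.0135), was lost without Vkine + LPS replicate 3 (0.0512), with upper-quartile factors and with limma on FPKM.

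Plk1, a kinase of mitotic entry and spindle assembly (ENSMUSG00000030867, chr7:122159439-122169873), had its calls in Vkine + LPS opposite to those of Bub1 and Nusap1. Plk1 had 142, 155 and 148 CPM in Vkine + LPS, 116, 113 and 110.2 CPM in EV + LPS, 111, 107 and 94.8 CPM in Vkine, and 131 and 118 CPM in EV. Vkine + LPS was above all other samples, by 0.51 ± 0.07 over Vkine and 0.39 ± 0.07 over EV + LPS (edgeR adjusted p of 2.17e-05 and 0.000362). Its fall with Vkine alone (-0.26 ± 0.08) was lost without EV replicate 1 or Vkine replicate 3 (up to 0.264). Aurka, the centrosome kinase, had 100.3, 101 and 96.6 CPM in Vkine + LPS, 89.2, 84 and 87.1 CPM in EV + LPS, 83.2, 73.5 and 72.5 CPM in Vkine, and 86.9 and 83.4 CPM in EV. It rose in Vkine + LPS against Vkine (0.38 ± 0.07, edgeR adjusted p = 0.000217). Ccna2 had 279.7, 284 and 281 CPM in Vkine + LPS, 333, 333 and 326 CPM in EV + LPS, 275, 281 and 271 CPM in Vkine, and 319 and 328 CPM in EV. Both Vkine groups thus lay below both EV groups. Its log2 fold change was -0.23 ± 0.06 without LPS and -0.23 ± 0.05 with LPS, and the first call was lost without either EV replicate (up to 0.114).

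In the spindle checkpoint and the anaphase-promoting complex, Bub1 and Cdc20 had opposite patterns. Bub1, a checkpoint kinase (ENSMUSG00000027379, chr2:127801122-127831865), had 87, 80.7 and 82.2 CPM in Vkine + LPS, 128, 146 and 122 CPM in EV + LPS, 109, 114 and 124 CPM in Vkine, and 98.4 and 104 CPM in EV. It lay below all other samples in Vkine + LPS, -0.66 ± 0.08 against EV + LPS and -0.47 ± 0.08 against Vkine (edgeR adjusted p of 5.99e-06 and 8.58e-05). Cdc20, which activates the anaphase-promoting complex, had 120.1, 132 and 122 CPM in Vkine + LPS, 109, 87.6 and 109 CPM in EV + LPS, 104, 107 and 89 CPM in Vkine, and 128 and 119 CPM in EV. Its interaction was 0.60 ± 0.13 (edgeR adjusted p = 0.00156), and that of Bub1 was -0.852. With the GC and length offset described below, these were 0.34 ± 0.08 for Cdc20 and -0.24 ± 0.07 for Bub1, both still called. Cdc20 was called lower with Vkine alone and with LPS alone, but 3 and 5 of the 11 fits that left out 1 library lost these calls. Bub1b, the partner of Bub1 in the checkpoint, had 180.2, 194 and 196 CPM in Vkine + LPS, against 164, 172 and 169 CPM in EV + LPS (0.18 ± 0.06, edgeR adjusted p = 0.0248). In all, 5 of the 11 fits that left out 1 library, those without EV replicate 1 or 2, EV + LPS replicate 1 or Vkine + LPS replicate 2 or 3, lost that call (up to 0.106), as did 5 of 10 other settings, among them upper-quartile factors and no filter. Ube2c, the ubiquitin-conjugating enzyme of that complex, was called in no comparison.

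Spindle and kinetochore genes were called in 1 direction within each comparison. Of 7, 5 rose with LPS alone against EV, 3 rose and 0 fell with Vkine alone, and 5 fell and 0 rose in Vkine + LPS against EV + LPS, beside 17.2%, 16.9% and 19.2% of all genes called in those directions. Without EV replicate 1, the rises of Cenpe with LPS (adjusted p = 0.0623) and of Nusap1 with Vkine (0.12) were lost. All 7 interaction values were negative and 5 were called (Nusap1, Cenpe, Kif11, Cenpf and Birc5), with a median of -0.79. Nusap1, a microtubule-binding spindle protein (ENSMUSG00000027306, chr2:119618298-119651244), had 114, 107 and 115 CPM in Vkine + LPS, 196, 185 and 199.7 CPM in EV + LPS, 141, 149.6 and 170 CPM in Vkine, and 119.9 and 129 CPM in EV. It rose with LPS (0.64 ± 0.08, edgeR adjusted p = 2.62e-05) and fell in Vkine + LPS against EV + LPS (-0.79 ± 0.07, edgeR adjusted p = 7.76e-07). That was the lowest adjusted p of the 43 members in that comparison, and its interaction was -1.09 ± 0.11 (edgeR adjusted p = 1.06e-06). None of the 7 was called higher in either comparison of Vkine + LPS. Kif23 and Tpx2 had 1 call each, Kif23 lower in Vkine + LPS against EV + LPS (-0.25 ± 0.06) and Tpx2 higher with LPS alone (0.19 ± 0.06), a call that was lost without either EV replicate or EV + LPS replicate 3 (up to 0.193).

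The mitotic kinesin Kif11 (ENSMUSG00000012443, chr19:37376403-37421859) had 359, 330 and 355 CPM in Vkine + LPS, 530.1, 603 and 497 CPM in EV + LPS, 423, 461 and 489.8 CPM in Vkine, and 406 and 417 CPM in EV. Vkine + LPS stood below and EV + LPS above all other samples (-0.64 ± 0.08 between them, edgeR adjusted p = 8.44e-06). The kinetochore motor Cenpe had 176, 162 and 170 CPM in Vkine + LPS, 198, 239 and 195 CPM in EV + LPS, 209, 224 and 253 CPM in Vkine, and 154 and 163 CPM in EV. Cenpf, a kinetochore protein, had 121, 105 and 119.6 CPM in Vkine + LPS, 123, 158 and 115 CPM in EV + LPS, 143, 167 and 181 CPM in Vkine, and 108 and 109.8 CPM in EV. Both rose with Vkine alone, Cenpe by 0.53 ± 0.10 and Cenpf by 0.59 ± 0.12 (edgeR adjusted p of 0.000484 and 0.00152), and both calls held in every fit that left out 1 library. Birc5 had 112, 110 and 108 CPM in Vkine + LPS, against 155, 137 and 179.9 CPM in EV + LPS. Its log2 fold change between them was -0.51 ± 0.08 (edgeR adjusted p = 0.000139).

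**Figure D3:**
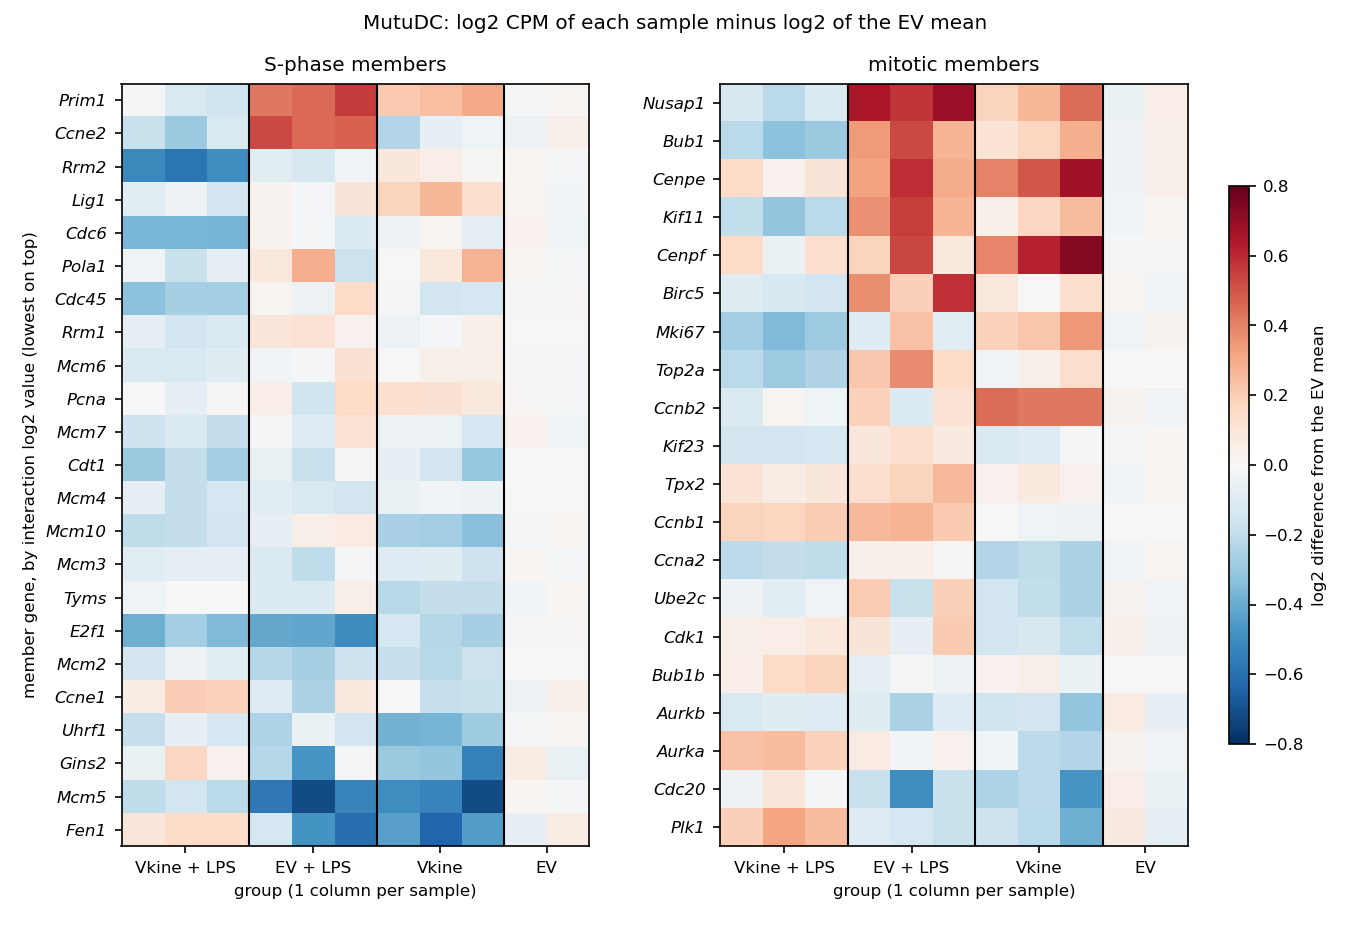
Log2 CPM of each MutuDC sample minus log2 of the EV mean, with 1 row per member (S-phase left, mitotic right, ordered by the interaction value) and 1 column per sample; red is above and blue below the EV mean. Rows at the top, such as Nusap1, Bub1 and Prim1, are red in EV + LPS and Vkine and blue or near 0 in Vkine + LPS, and rows at the bottom, such as Mcm5 and Fen1, run the other way.

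The members called in opposite directions also differed in base composition. Members with a higher interaction value had transcripts with a median GC content of 53.5% (48.2% to 58.1%, 11 members), and those with a lower value 44.1% (37.5% to 53.4%, 14 members). Across the 43 members, the Pearson correlation of transcript GC content with the log2 fold change was -0.60 for Vkine and -0.75 for EV + LPS, each against EV, 0.56 for Vkine + LPS against Vkine, 0.69 for Vkine + LPS against EV + LPS and 0.72 for the interaction. The same values over all genes tested were -0.28, -0.32, 0.22, 0.35 and 0.39, so the trend ran through the whole table. In tumor CD45 cells it was 0.23 over members and -0.0022 over all genes. These are correlations across genes of the same libraries, and genes are not independent replicates. S-phase and mitotic members had median GC contents of 49.7% and 47.2%.

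The fits were therefore repeated with an offset that removed a smooth trend of GC content and transcript length from each library, a setting added after seeing the data. Of the calls without the offset, 13 of 18, 9 of 15, 21 of 24, 19 of 24 and 21 of 25 were also made with it in the same direction, for Vkine, EV + LPS, Vkine + LPS against Vkine, Vkine + LPS against EV + LPS and the interaction. Mcm5 (interaction 0.78 ± 0.07), Nusap1 (-0.65 ± 0.08), Cenpe (-0.52 ± 0.07) and Rrm2 (-0.29 ± 0.06) kept their direction and call with smaller values, as did Kif11 (-0.32 ± 0.06), Cenpf (-0.48 ± 0.07) and Birc5 (-0.50 ± 0.11). The Ccne2 and E2f1 interactions changed sign and were no longer called, with 0.25 ± 0.10 and -0.11 ± 0.11 (edgeR adjusted p of 0.0546 and 0.413), and the rise of Ccnb1 with LPS became -0.04 ± 0.05. The Mcm2 and Uhrf1 interactions (0.01 ± 0.06 and 0.12 ± 0.08) were no longer called. With Vkine alone, Nusap1, Prim1, Plk1, Mcm2 and Aurkb were not called with the offset, and with LPS alone Ccne2, E2f1, Bub1, Mcm2 and Top2a were not. In Vkine + LPS against Vkine, Ccne1, Top2a and Uhrf1 lost their call, and in Vkine + LPS against EV + LPS Rrm1 (-0.03 ± 0.05), Ccna2 (-0.10 ± 0.04), Kif23 (-0.09 ± 0.04), Aurka and Gins2 were not. The S-phase minus the mitotic mean then stood at -0.310, -0.302 and -0.315 in Vkine + LPS, -0.367, -0.376 and -0.352 in EV + LPS, -0.306, -0.326 and -0.324 in Vkine, and -0.218 and -0.197 in EV. EV thus stayed above all others while Vkine + LPS and Vkine now overlapped. The S-phase minus the mitotic median of the log2 fold changes became 0.002 for Vkine against EV, where it was -0.141 without the offset. Over mitotic members, the correlation of GC content with the interaction was still 0.5 with the offset, against 0.84 without it. Over S-phase members it was -0.1, against 0.61. For Vkine + LPS against EV + LPS, the values with the offset were 0.54 over mitotic and 0.014 over S-phase members. Whether the trend came from the libraries or from the cells was not tested.

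**Figure D4:**
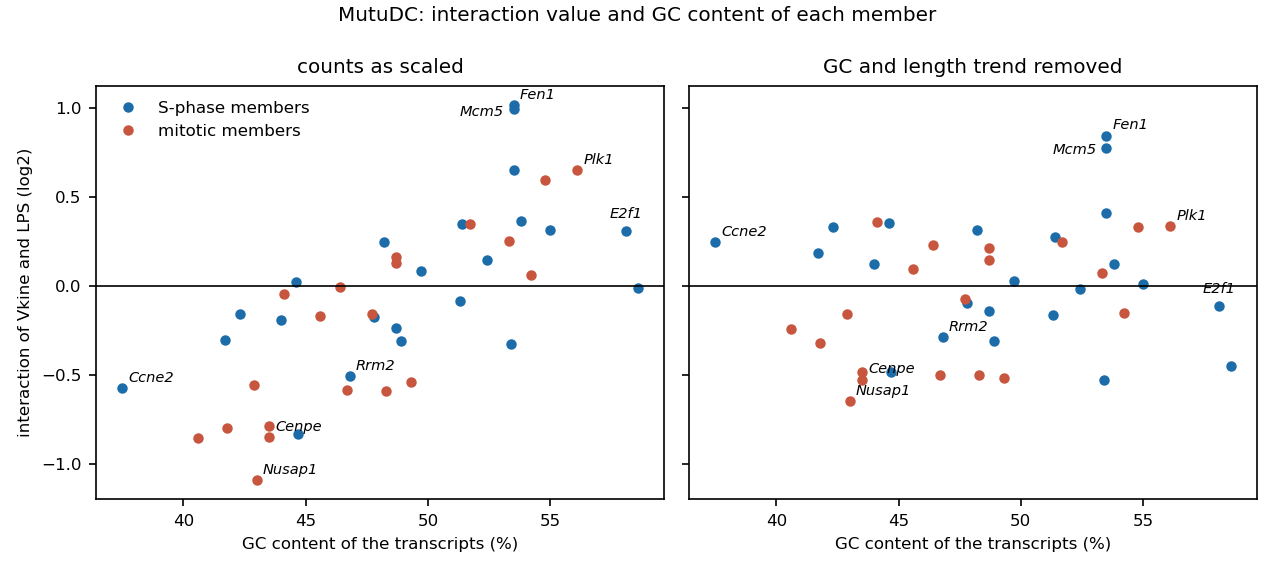
Interaction value (log2 effect of Vkine with LPS minus that without) of each member against the GC content of its transcripts, for counts as scaled (left) and after a GC and length trend was removed (right). On the left the points rise from Nusap1 at -1.09 to Fen1 at 1.02 (correlation 0.72). On the right the correlation is 0.19 over all members, 0.5 over mitotic members and -0.1 over S-phase members, and Ccne2 and E2f1 have changed sign.

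Mitochondrial genes took 0.936% to 1.03% of counts in Vkine + LPS, 1.73% to 1.96% in EV + LPS, 1.72% to 1.86% in Vkine and 1.36% to 1.41% in EV, an order that also sets Vkine + LPS on one side of EV and the groups with a single agent on the other. Its part in the members' values was not tested.

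Regulators upstream of these genes, from lists drawn up with earlier results known, also changed in MutuDC. Of 7 CDK inhibitors tested, Vkine against EV called 3 higher and 1 lower, and the interaction 3 higher and 1 lower, beside 35.2% and 49.2% of all genes called in either direction. With the GC and length offset the counts were 4 higher and 1 lower, and 2 higher and 3 lower, beside 38.8% and 46.6%. Cdkn1a had 151, 157 and 158 CPM in Vkine + LPS, 55.9, 55.7 and 54.4 CPM in EV + LPS, 42.2, 41.9 and 40.7 CPM in Vkine, and 31.8 and 32.3 CPM in EV. The 4 groups were fully separated, with log2 fold changes of 1.90 ± 0.06 in Vkine + LPS against Vkine and 1.49 ± 0.06 against EV + LPS (edgeR adjusted p of 1.06e-12 and 1.14e-10). Cdkn1b, which encodes p27, had 60.4, 55.1 and 53.9 CPM in Vkine + LPS, 82.7, 81.6 and 78.6 CPM in EV + LPS, 86.4, 83.9 and 90.5 CPM in Vkine, and 52.1 and 57.5 CPM in EV. It was high with either agent alone, 0.67 ± 0.08 with Vkine and 0.56 ± 0.08 with LPS against EV, and its interaction was -1.19 ± 0.11 (edgeR adjusted p = 2.66e-07).

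The D-type cyclins, which drive the first step out of G1, differed from one another. Ccnd1 had 450.3, 455 and 470.1 CPM in Vkine + LPS, 237, 262 and 222 CPM in EV + LPS, 197, 194 and 189 CPM in Vkine, and 290.2 and 299.6 CPM in EV (interaction 1.54 ± 0.10, edgeR adjusted p = 6.59e-09). Ccnd3 had 119.6, 128 and 119 CPM in Vkine + LPS, 80.3, 78.6 and 87.6 CPM in EV + LPS, 91, 87.3 and 73.4 CPM in Vkine, and 129 and 121 CPM in EV (interaction 1.15 ± 0.12, edgeR adjusted p = 1.16e-06). Ccnd2 went the other way, with 306, 293 and 304 CPM in Vkine + LPS, 284, 349 and 265 CPM in EV + LPS, 354, 360.4 and 361 CPM in Vkine, and 258 and 269 CPM in EV (interaction -0.43 ± 0.12, edgeR adjusted p = 0.00757). Their kinase Cdk6 had 23.4, 21.5 and 24.5 CPM in Vkine + LPS, 9.21, 9.24 and 8.12 CPM in EV + LPS, 11.4, 10.3 and 8.84 CPM in Vkine, and 13.5 and 14.1 CPM in EV (interaction 1.82 ± 0.16, edgeR adjusted p = 2.82e-07). Of the 8 genes in the list of G1 cyclins and kinases, 2 rose and 5 fell with Vkine, and 0 rose and 3 fell with LPS alone, against EV, beside 35.2% and 34.8% of all genes called. With the GC and length offset the counts were 2 and 5, and 1 and 3, beside 38.8% and 30.6%.

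Among 19 E2F, pocket protein and MuvB genes, 5 had a higher and 8 a lower interaction value by the test, beside 49.2% of all genes. With the GC and length offset the counts were again 5 and 8, beside 46.6%. The retinoblastoma gene Rb1 had 46.9, 35.7 and 43.4 CPM in Vkine + LPS, 65.7, 72.5 and 60 CPM in EV + LPS, 85.2, 94.4 and 105 CPM in Vkine, and 53.1 and 55.9 CPM in EV. It rose with Vkine (0.80 ± 0.11) and fell in Vkine + LPS against Vkine (-1.17 ± 0.10, edgeR adjusted p = 1.5e-07). Mybl2, which encodes B-Myb, had 105, 119 and 111 CPM in Vkine + LPS, 82.9, 83.3 and 87.9 CPM in EV + LPS, 78.8, 79.5 and 77 CPM in Vkine, and 129.6 and 127 CPM in EV (interaction 1.11 ± 0.09, edgeR adjusted p = 1.85e-07). Foxm1 had 112, 118 and 124 CPM in Vkine + LPS, 132, 149 and 132 CPM in EV + LPS, 160, 157 and 163 CPM in Vkine, and 154 and 151 CPM in EV. It fell in Vkine + LPS against Vkine (-0.44 ± 0.07, edgeR adjusted p = 4.22e-05). Mybl2 was thus highest in EV and Vkine + LPS, and Foxm1 lowest in Vkine + LPS.

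**Figure D5:**
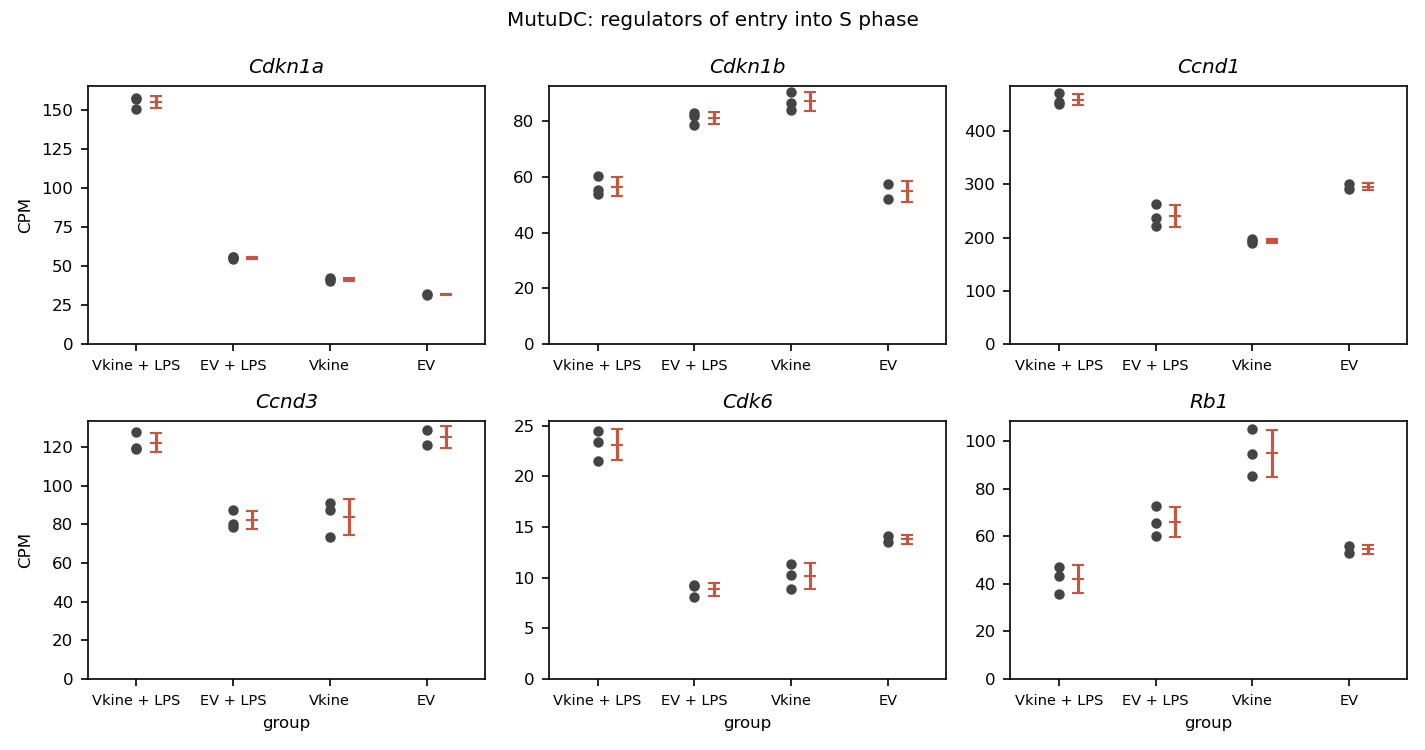
CPM of 6 regulators of entry into S phase in each MutuDC sample (points), with group means and SD (red; n = 3, and n = 2 for EV). Cdkn1a lies at 151 to 158 CPM in Vkine + LPS, above all other samples; Cdkn1b and Rb1 are high with a single agent, and Ccnd1, Ccnd3 and Cdk6 are low with a single agent.

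Other genes of both processes, outside the 43, were counted in the same way. In Vkine + LPS against EV + LPS, 6 of 46 other replication genes rose and 21 fell, and 6 of 40 other mitosis genes rose and 22 fell. Of all genes, 22.8% were called higher there and 19.2% lower. With LPS alone, against EV, 11 replication genes rose and 6 fell, and 16 mitosis genes rose and 6 fell, beside 17.2% and 17.6% of all genes. With Vkine alone the counts were 7 and 10, and 6 and 6, beside 16.9% and 18.3%. With the GC and length offset, the replication counts in that order were 6 and 18, 7 and 6, and 4 and 15. The mitosis counts were then 4 and 19, 9 and 3, and 3 and 9. Of all genes, 39.9%, 30.6% and 38.8% were called with the offset in either direction. The Ndc80 complex gene Spc25 rose with LPS (0.75 ± 0.10) and fell in Vkine + LPS against EV + LPS (-0.88 ± 0.08, edgeR adjusted p = 1.04e-06), and Ndc80 did likewise, with 0.63 ± 0.08 under LPS and an interaction of -0.89 ± 0.11. Cyclin F (Ccnf) fell with Vkine (-0.80 ± 0.07, edgeR adjusted p = 1.86e-07) and had an interaction of 1.08 ± 0.09. The polymerase epsilon subunit Pole2 (-0.99 ± 0.12), the origin kinase subunit Dbf4 (-0.93 ± 0.10) and the origin recognition subunit Orc3 (-0.94 ± 0.11) had negative interaction values, all called.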

How the data were processed

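RNA was sequenced from 6 tumor CD45 and 11 MutuDC samples. The authors deposited raw read counts per gene and FPKM values; per the submitters' processing notes build GRCm38, featureCounts 1.5.0-p3, DESeq2 1.20.0, STAR and fastp are named. Their roles and the strand setting are not stated. The deposited FPKM values of MutuDC rest on a length that is not defined, and those of the CD45 table carry 1 further factor per sample that is not explained; they were used for levels between genes and for alternatives only.

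The counts were analysed with edgeR 4.0.16 in R 4.3.3: filterByExpr, TMM factors and the robust quasi-likelihood test, with Benjamini-Hochberg adjustment over all genes tested and a threshold of 0.05. The 6 CD45 samples were fitted apart; the 11 MutuDC samples shared 1 fit. Per-sample means of log2 CPM used a prior count of 2. Alternatives were RLE and upper-quartile factors, no filter, CPM of at least 1, no robust estimation, DESeq2 1.42.0, limma 3.58.1 on log2(FPKM + 1) and log2(FPKM + 0.1), a replicate block, the compared groups alone, each library left out, and, added after seeing the data, a GC and length offset. The fits were tested on simulated counts. Promoters came from RefSeq (GRCm38.p6); exon overlaps and transcript GC from GENCODE vM21. Figures were drawn with Python 3.11.15 and matplotlib 3.10.9.

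The members and gene lists were chosen with earlier results of these data known. All 43 members may be named; values per sample are given for the 4 S-phase and 4 mitotic members with the smallest p in each comparison, for called members against the direction of their kind, and for Mki67, Mcm6, Ccne1, Ccne2, E2f1 and Cdk1, and from each other list up to 4 genes with the smallest p, beside Cdkn1a, Cdkn1b, Ccnd1, Ccnd2, Ccnd3 and Foxm1. Further members are given per sample where a role is described, chosen after their values were seen.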

Additional observations from a re-analysis of the deposited data

Results flagged for a closer look

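In MutuDC the effect of Vkine with LPS differed from its effect without LPS for 25 of 43 members by the interaction test of edgeR (adjusted p below 0.05), beside 49.2% of all genes tested. The values below are log2 effects of Vkine with LPS minus those without. Negative values among spindle and kinetochore genes were -1.09 for Nusap1, -0.846 for Cenpe, -0.797 for Kif11, -0.786 for Cenpf and -0.59 for Birc5. Other mitotic members with negative values were Bub1 (-0.852), Mki67 (-0.583), Top2a (-0.555) and Ccnb2 (-0.536). Of the S-phase members, Prim1 (-0.829), Ccne2 (-0.573), Rrm2 (-0.503), Lig1 (-0.325) and Cdc6 (-0.305) had negative values.

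Positive values were 1.02 for Fen1, 0.994 for Mcm5, 0.656 for Gins2, 0.368 for Uhrf1, 0.352 for Ccne1, 0.316 for Mcm2, 0.311 for E2f1 and 0.248 for Tyms in S phase. Mitotic members with positive values were Plk1 (0.652), Cdc20 (0.597) and Aurka (0.35). Of the 25, 18 held in every fit that left out 1 library and in every other scaling, filter and tool tried but the GC and length offset. The 7 that did not were Ccne1, E2f1, Tyms, Mcm2, Uhrf1, Aurka and Cdc6, and each of them was lost without EV replicate 1 or EV replicate 2, the group with 2 samples (adjusted p up to 0.198, for Tyms and Ccne1). Ccne1, E2f1 and Tyms were also lost without samples of other groups, in 8, 5 and 7 of 11 such fits in all. Of 9 other settings, 6, 6 and 5 lost them as well. Mcm2, Aurka and Uhrf1 were also lost with limma on FPKM.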

How the results depend on the processing

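No member changed sign under another scaling, filter, tool or left-out library in any comparison in which it was called. With the GC and length offset, the rise of Ccnb1 in EV + LPS became -0.0375, and the interactions of Ccne2 and E2f1 became 0.25 and -0.11. Among other genes, none of them called, Foxm1 became 0.0668 in EV + LPS with the offset and 0.0266 in CD45 with the replicate block, and Cdkn1b became -0.0454 in CD45 without EV replicate 2 (up to 0.302 without EV replicate 1). Ccnd2, at 0.00883 in Vkine + LPS against EV + LPS, became -0.00398 (RLE factors), -0.0445 (upper-quartile factors), -0.015 (no filter), -0.004 (DESeq2), -0.0558 and -0.056 (FPKM), -0.0713 (offset) and -0.0164 (compared groups alone), and ran from -0.0726 to 0.133 as 1 library was left out.

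Counts of called members moved by over 1.5 times as follows. In CD45 cells 1 member was lower with no filter. With limma on FPKM, under both pseudocounts, 5 were lower in Vkine and 3 lower in EV + LPS against EV; Vkine + LPS had 5 higher and 24 lower against Vkine and 3 higher against EV + LPS; the interaction had 5 higher, with 22 lower for FPKM + 1 and 23 for FPKM + 0.1. Upper-quartile factors gave 20 lower against Vkine and 4 higher against EV + LPS, no filter 5 higher against EV + LPS, and the compared groups alone 2 lower in EV + LPS against EV and 4 higher in Vkine + LPS against EV + LPS. The median of all genes became -0.108 in Vkine + LPS against Vkine (FPKM + 0.1), from 0.00834 in the main fit. In the interaction it became -0.104 (upper quartile), -0.123 and -0.161 (FPKM + 1 and + 0.1), from -0.0196. The S-phase minus the mitotic median became 0.002, -0.106, -0.0155, 0.00133 under the offset for Vkine, EV + LPS, Vkine + LPS against Vkine and against EV + LPS.

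Leaving out 1 library gave ranges of -0.0873 to 0.0688 for that difference in CD45 cells. In Vkine against EV it was -0.156 to -0.107, with 3 to 9 higher and 3 to 15 lower calls; in EV + LPS against EV -0.196 to -0.13, with 5 to 12 and 2 to 5. In Vkine + LPS against Vkine it was -0.084 to -0.0475, with 8 to 13 and 12 to 17; against EV + LPS 0.004 to 0.0818, with 3 to 9 and 15 to 22; and in the interaction 0.0788 to 0.191, with 6 to 13 and 13 to 17.

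Deviations of same-numbered MutuDC samples from their group means correlated between -0.101 and 0.0962, and those of differently numbered samples between -0.144 and 0.163. Deviations within groups of 2 or 3 samples are tied to one another, so these values cannot show whether the samples were paired. With the replicate block, the higher and lower calls were 5 and 9 in Vkine, 9 and 4 in EV + LPS, 11 and 14 and 6 and 16 in Vkine + LPS against Vkine and EV + LPS, and 10 and 14 in the interaction, and 0 in CD45, where the S-phase minus the mitotic median was -0.101. The CD45 block rested on title letters whose meaning is unclear and called 0 of 14006 genes, so its 0 calls cannot show that members were unchanged. The causes of these changes were not tested. The 2 EV samples limit every comparison with EV, and the CD45 spread limits what 3 samples a group could show.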
